A study of Rattus norvegicus with 6 samples.

Results

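The miRNAs rno-miR-1-3p, rno-miR-206-3p and rno-miR-499-5p, written without the species prefix from here on, are 3 miRNAs best known from skeletal and cardiac muscle, and their counts were followed in extracellular vesicles of rat dedifferentiated fat (DFAT) cells. They were chosen by name from a table of miRNA counts, in which each has a single line, and they are 3 of its 417 different mature sequences. DFAT cells arise in ceiling culture, where mature fat cells float up, attach, lose their lipid and regain the ability to form several tissues. The cells came from adipose tissue of Sprague-Dawley rats. Vesicle RNA was sequenced after 14 d of culture in osteogenic induction medium (14 d, n = 3) and at day 0 of that medium (0 d, n = 3), and the question was which vesicle miRNAs change with osteogenic conditioning. No label ties the 3 samples of a group to separate cultures or animals. The p-values thus cover the spread among these samples alone, which could be technical.

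A mature miRNA guides its silencing complex to messenger RNAs that pair with its seed, bases 2 to 8 from the 5′ end, so miRNAs with one seed share most predicted targets. MiR-1 and miR-206 have the same seed and are the classic muscle-restricted pair. MiR-1 is made in heart and skeletal muscle, where it promotes muscle differentiation, and miR-206 is made mainly in skeletal muscle and its regenerating precursors. In osteoblast cultures miR-206 is known as an inhibitor of differentiation that targets the gap junction gene Gja1. MiR-499 lies within an intron of Myh7b, a myosin heavy chain gene, and is linked to slow muscle fibers and heart.

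The sequences are shown because the results turn on which of 3 near-identical molecules was counted. The 3 members, the close relative miR-1b and the cardiac miR-208a are printed 5′ to 3′, with the seed in capitals.
miR-1-3p: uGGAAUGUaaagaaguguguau
miR-1b: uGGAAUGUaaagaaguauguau
miR-206-3p: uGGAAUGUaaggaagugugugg
miR-499-5p: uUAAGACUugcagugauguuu
miR-208a-3p: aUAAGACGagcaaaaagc

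Counting positions from 1 at the 5′ end of miR-1-3p, miR-1b differs from it by the 1 substitution G17A. MiR-206-3p differs from miR-1-3p by 3 substitutions, A11G, A21G and U22G, so all differences lie outside the seed. No other sequence of the table shared this seed, and the next nearest sequences to miR-1-3p or miR-206-3p were 8 edits away. A read of miR-1-3p is therefore told from miR-1b by 1 base, and the sources used here do not state whether mismatches were allowed in counting. MiR-499-5p shared its seed with no other sequence of the table. Its bases 2 to 7 are also those of miR-208a-3p, and no sequence of the table lay within 4 edits of miR-499-5p.

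All 5 mature sequences were identical to those in RefSeq's rat miRNA table (GRCr8). In that build miR-1-3p lies at chr18:2160339-2160360 on the minus strand, within the span of the gene Mib1, and the precursor of miR-3571 overlaps its precursor on the plus strand. MiR-206-3p lies at chr9:30590747-30590768 on the plus strand, within the long noncoding RNA gene LOC120094648 and next to the precursor of miR-133b. MiR-499-5p lies at chr3:164570616-164570636 on the plus strand, within the span of Myh7b, and miR-1b at chr3:187864736-187864757 on the plus strand. Although their mature forms differ by 1 base, the precursors of miR-1-3p and miR-1b are distinct hairpins from different chromosomes, printed here with the mature sequence in capitals.
Mir1 hairpin: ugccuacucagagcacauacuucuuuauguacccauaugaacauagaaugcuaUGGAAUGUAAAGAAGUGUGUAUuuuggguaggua
Mir1b hairpin: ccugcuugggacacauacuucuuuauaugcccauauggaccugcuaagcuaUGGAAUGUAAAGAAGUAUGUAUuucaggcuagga

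The 14 d libraries held 58730 to 73236 miRNA counts and the 0 d libraries 120766 to 164424. Levels are given as counts per 1000000 counts of a library (CPM) unless stated otherwise. A blank was taken as 0, and because no library lists a count below 2, a blank may stand for 0 or 1. MiR-21-5p, typical of stromal cells, took 59.7% to 68.7% of the counts at 14 d and 29.4% to 42.4% at 0 d, and this share enters every level per total count. All 7 miRNAs of a stromal list, miR-21-5p among them, had counts in all 6 libraries, and 3 of the 7 were called higher at 14 d and none lower, against 2 higher and 1 lower with total counts. Differences between 14 d and 0 d were tested across 119 sequences by the quasi-likelihood method of edgeR with trimmed mean of M-values (TMM) scaling, and a call required a Benjamini-Hochberg adjusted p below 0.05. At 54.6%, calls were common, with 26.1% of sequences higher and 28.6% lower at 14 d. Among the 3 muscle miRNAs 1 was called higher (miR-1-3p), 1 lower (miR-206-3p) and 1 not called (miR-499-5p), so the calls as such do not set them apart from the other sequences.

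MiR-206-3p fell to a few counts in vesicles of induced cells. It had 6, 0 and 4 counts in the 14 d libraries, against 454, 403 and 294 counts in the 0 d libraries. Every 0 d library stood far above every 14 d library, and 14 d replicate 2 had no listed count. In CPM these counts are 98.2, 0 and 68.1 at 14 d and 2981, 2451 and 2434 at 0 d. The 14 d mean was 55.4 ± 50.3 and the 0 d mean 2622 ± 311 (SD, n = 3 each). The 0 d level was tight between replicates, whereas the 14 d level rested on 10 counts in all. For the library with no count, 3 counts would correspond to 41.0 CPM, which covers counting error only.

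MiR-206-3p fell by 4.88 ± 0.78 on the log2 scale (SE, n = 3 per group; edgeR adjusted p = 0.00281). From the summed counts, 10 at 14 d and 1151 at 0 d, it was 50.8-fold lower at 14 d relative to total counts, with a 95% interval of 27.5 to 106 from the exact binomial (Clopper-Pearson) method that covers counting error only. The groups did not overlap, which was also so for 78.2% of all tested sequences. The call held in all 21 alternative settings, with log2 values of -4.27 to -7.24 and adjusted p values of 2.19e-12 to 0.0439. MiR-206-3p passed the count filter through its 0 d counts alone, which leaves little room for a call in the other direction. Without 14 d replicate 1 the value was -5.48. With total-count scaling it was -5.58, and with limma on the authors' normalized values it was -6.09 with a pseudocount of 1 and -7.24 with one of 0.1. MiR-206-3p ranked 32, 32 and 36 among the 213, 227 and 154 sequences listed in the 0 d libraries. At 14 d it ranked 95 of 158 in replicate 1 and 120 of 176 in replicate 3. By mean CPM at 0 d it stood between miR-27b-3p (2746 CPM), from which it differed by less than its own SD, and miR-450a-5p (2116 CPM).

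**Figure D1:**
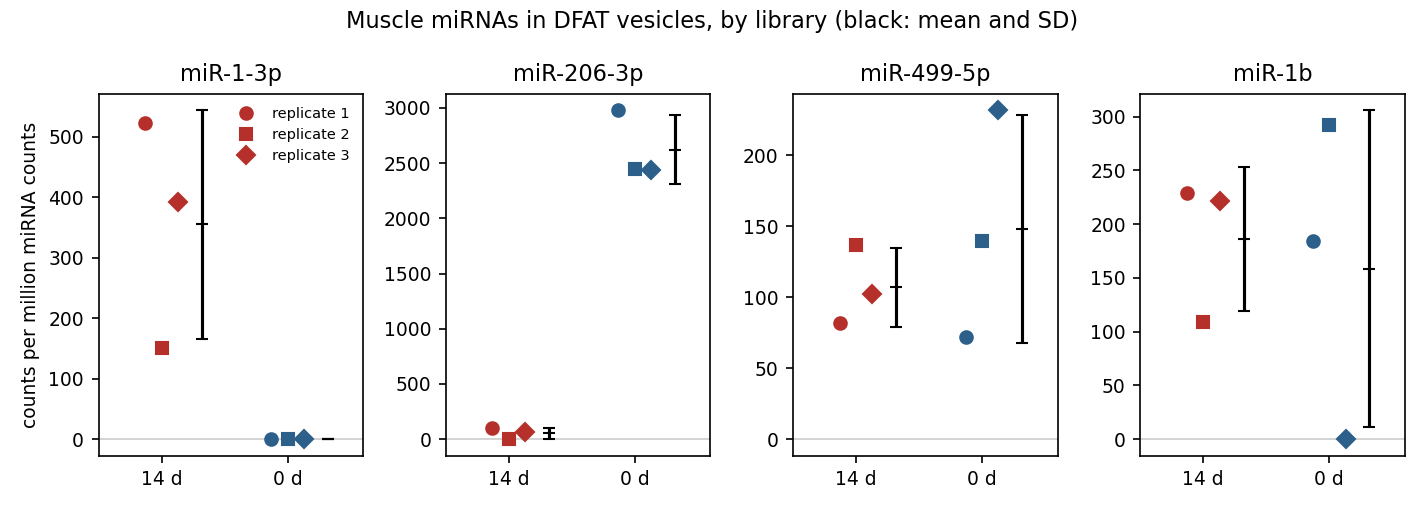
Level of miR-1-3p, miR-206-3p, miR-499-5p and the near-identical miR-1b in each library, in CPM, with 14 d libraries in red and 0 d libraries in blue. Symbols give the replicate, and the black bar gives mean and SD (n = 3 per group); each panel has its own linear axis, on which miR-1-3p is at 0 in all 0 d libraries and miR-206-3p has a mean of 55.4 CPM at 14 d and 2622 CPM at 0 d.

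MiR-1-3p went the other way. It had 32, 11 and 23 counts at 14 d and no listed count in any 0 d library, although the 0 d libraries were the deeper ones. The 14 d levels were 524, 150 and 392 CPM, with a mean of 355 ± 189 (SD, n = 3), and 14 d replicate 2 was the lowest. In the 0 d libraries 3 counts would correspond to 19.7, 18.2 and 24.8 CPM, below every 14 d level. Against that floor of 3 counts in each 0 d library, the 14 d mean of miR-1-3p was at least 17.0-fold higher on total counts and at least 28.4-fold higher with TMM scaling. These bounds cover counting error at 0 d only, not the spread among the 14 d libraries. They also take each 0 d blank as at most 3 counts, and such blanks are described below. The test called miR-1-3p higher (edgeR adjusted p = 0.00289). Its fitted log2 fold change depends on the prior count, so the bounds are given instead. In the authors' deposited normalized values it stood at 141, 25 and 83 at 14 d and had no value at 0 d.

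MiR-1-3p was 1 of 5 tested sequences without a count in all 3 of the 0 d libraries, and the only annotated miRNA among them. Such sequences passed the count filter through their 14 d counts alone, which fixes the direction of their calls. Blanks were frequent at 0 d beside sizeable counts in a sister library. Among tested sequences that reached 20 counts in some library of a group, none of 75 had a blank in another library of that group at 14 d, against 17 of 108 (15.7%) at 0 d. Of these 17, some with blanks in more than 1 library, 15 were blank in 0 d replicate 3, 3 in replicate 1 and 1 in replicate 2, and the highest count beside a blank was 97. This comparison was chosen after the values had been seen, and its part in the 0 d values of miR-1-3p was not tested. The miR-1-3p call held without each of the 6 libraries in turn. Its direction could not change in these refits, because every 0 d library that remained had no count of it.

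MiR-1b, the 1-base relative of miR-1-3p, was present in both groups. The blanks of miR-1-3p at 0 d therefore do not mean that miR-1b was also without counts there. The background given above for miR-1 does not tell miR-1-3p from miR-1b. It had 14, 8 and 13 counts at 14 d and 28, 48 and 0 counts at 0 d. In CPM these are 229, 109 and 221 at 14 d and 184, 292 and 0 at 0 d. The 14 d mean was 187 ± 67.1 CPM and the 0 d mean 159 ± 148 CPM (SD, n = 3 each), and on this scale the groups overlapped. With TMM scaling the levels were 248, 232 and 240 at 14 d and 137, 217 and 0 at 0 d. On that scale the groups did not overlap, as for 78.2% of all tested sequences. The log2 fold change of miR-1b was 1.01 ± 1.24 (SE; edgeR adjusted p = 0.498), so no difference was called. The value was 0.22 with total counts, 0.43 without 0 d replicate 3 and 1.66 without 0 d replicate 2, and the blank in 0 d replicate 3 is 1 of the 15 just described.

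The relation of miR-1b to miR-1-3p differed between the groups. Of the counts of miR-1-3p and miR-1b together, miR-1b held 30.4%, 42.1% and 36.1% in the 14 d libraries. In 0 d replicates 1 and 2 it held all 28 and all 48 counts, with lower 95% limits (Clopper-Pearson) of 87.7% and 92.6% that cover counting error only, and 0 d replicate 3 had neither. A share within a library does not depend on the scaling between libraries. When the counts of miR-1b were added to miR-1-3p, the rise of the combined sequence was 2.50 ± 1.19 on the log2 scale and was no longer called (edgeR adjusted p = 0.105). Of the 20 alternative settings in which miR-1-3p could be tested, this was the only one that ended its call. The summed counts were 101 at 14 d and 76 at 0 d, a ratio of 3.01 relative to total counts (95% interval 2.21 to 4.11, counting error only). The miR-1-3p call thus rests on reads of the 2 sequences being told apart at base 17.

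The miR-1 and miR-206 seed as a whole was lower in every 14 d library than in any 0 d library. The summed counts of miR-1-3p and miR-206-3p were 38, 11 and 27 at 14 d and 454, 403 and 294 at 0 d. In CPM the sums were 622, 150 and 460 at 14 d and 2981, 2451 and 2434 at 0 d, where the sum is miR-206-3p alone. The groups did not overlap, which was also so, with TMM scaling, for 78.2% of all tested sequences. The 14 d mean was 411 ± 240 CPM and the 0 d mean 2622 ± 311 CPM (SD, n = 3 each), 6.39-fold lower at 14 d on total counts and 3.89-fold lower with TMM scaling. With miR-1b included the means were 597 ± 304 CPM at 14 d and 2781 ± 367 CPM at 0 d, 4.66-fold lower at 14 d. These sums are given as a description, with no test.

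**Figure D2:**
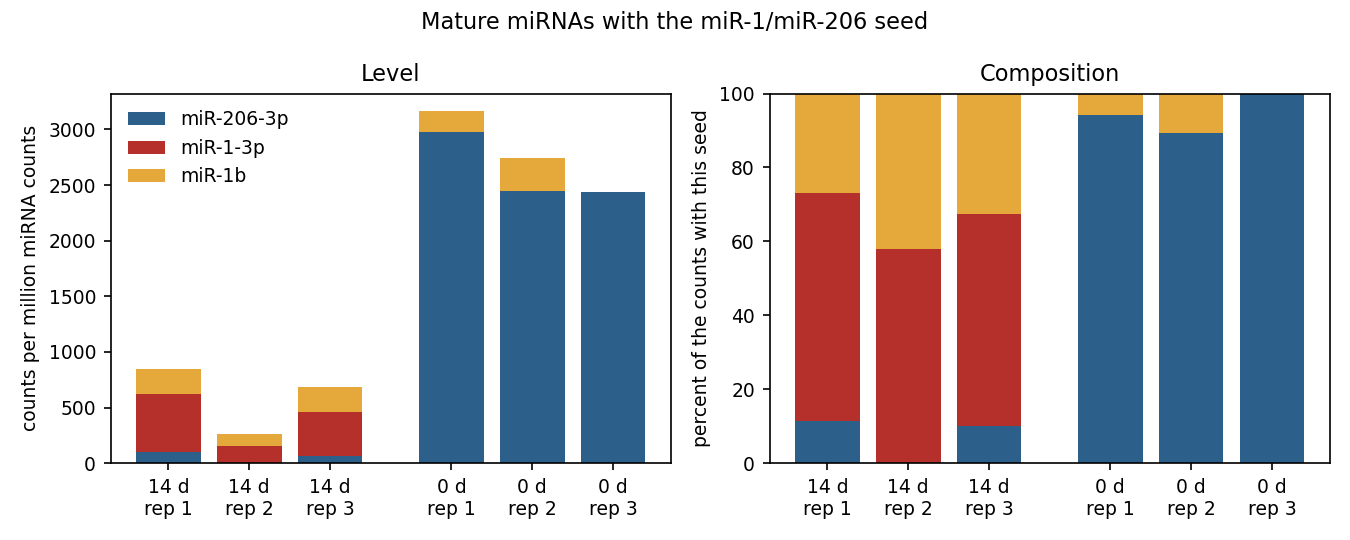
Mature miRNAs with the seed shared by miR-1 and miR-206 in each library, stacked by sequence: the left panel gives CPM and the right panel the percent of the counts with this seed. In the 14 d libraries miR-1-3p and miR-1b hold most of a low sum, and in the 0 d libraries miR-206-3p holds at least 89.4% of a high one.

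The main source of the seed differed between the groups. MiR-206-3p held 15.8%, 0% and 14.8% of the miR-1-3p and miR-206-3p counts in the 14 d libraries and 100% in each 0 d library. The exact 95% intervals were 6.02% to 31.3%, 0% to 28.5% and 4.19% to 33.7% at 14 d, and the lower limits at 0 d were 99.2%, 99.1% and 98.8%. They cover counting error only, since reads copied by PCR are not independent molecules. The 14 d mean was 10.2% ± 8.85 and the 0 d mean 100% ± 0 (SD, n = 3 each). With miR-1b counted as a further source, miR-206-3p held 0% to 11.5% in the 14 d libraries and 89.4% to 100% in the 0 d libraries. MiR-1-3p then held 61.5%, 57.9% and 57.5% of the 14 d counts, and the order of the 3 sequences at 14 d was miR-1-3p, miR-1b and miR-206-3p in every library. In vesicle RNA, fewer vesicles that carry a miRNA and less of it per vesicle cannot be told apart.

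MiR-499-5p was a minor component in both groups. The 14 d libraries held 5, 10 and 6 counts of it, against 11, 23 and 28 in the 0 d libraries. In CPM these are 81.8, 137 and 102 at 14 d and 72.2, 140 and 232 at 0 d, so the 14 d values lay within the 0 d range. The 14 d mean was 107 ± 27.7 CPM and the 0 d mean 148 ± 80.1 CPM (SD, n = 3 each). The log2 fold change was 0.56 ± 0.86 (SE; edgeR adjusted p = 0.594), and it was -0.46 with total-count scaling, so no direction can be given. The ratio of summed counts relative to total counts was 0.767 at 14 d over 0 d, with a 95% interval of 0.444 to 1.28 that covers counting error only. The authors' normalized value was 22 in each 14 d library, against 15, 30 and 36 at 0 d.

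Within each group the order of the 3 members differed. At 14 d miR-1-3p had the highest mean, then miR-499-5p, then miR-206-3p, but miR-206-3p was above miR-499-5p in 14 d replicate 1 (98.2 against 81.8 CPM). The gap between these 2 means was about the size of the SD of miR-206-3p. At 0 d miR-206-3p came first, above miR-499-5p in all 3 libraries, and miR-1-3p had no count. All are tags of 21 or 22 bases, so no length correction is involved, but ligation efficiency can differ between sequences.

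**Figure D3:**
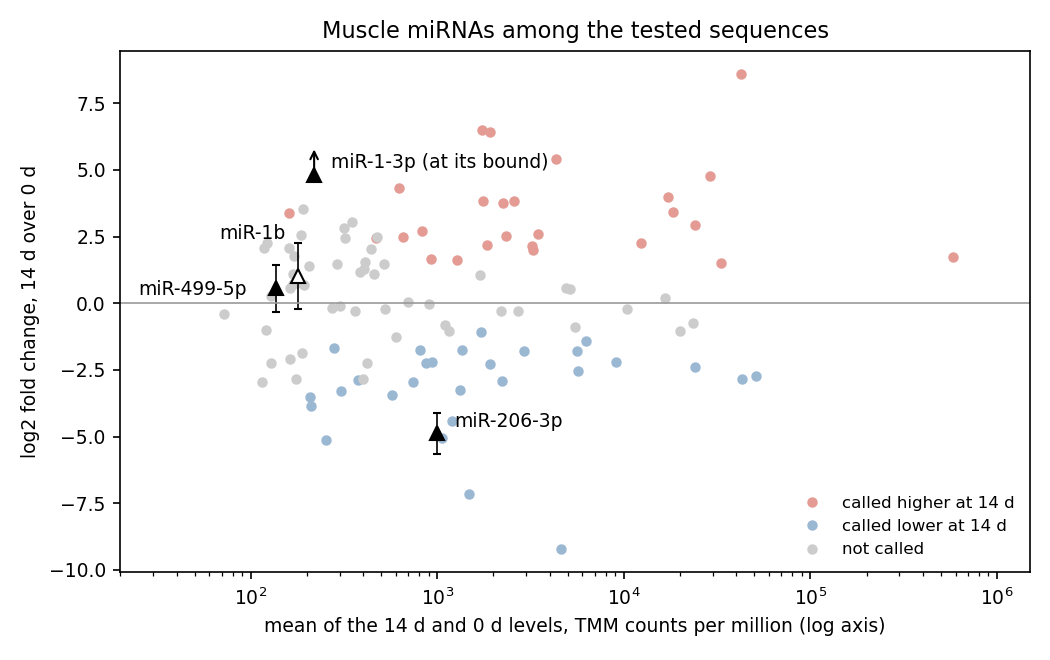
Log2 fold change of 14 d over 0 d from the edgeR fit against the mean of both group levels in TMM-scaled CPM (log axis), for miR-1-3p, miR-206-3p, miR-499-5p and miR-1b (triangles, with SE bars) and for 106 other tested sequences (circles, colored by call). MiR-1-3p is drawn at its lower bound of 4.83 (counting error only) with an arrow because it has no count at 0 d. The 9 other sequences without a count in 1 group are left out. MiR-206-3p at -4.88 stands low while miR-499-5p at 0.56 lies near 0.

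Of the other muscle-linked miRNAs, miR-486 and miR-378a-3p had enough counts to be tested, and they were called in opposite directions. A list of 9 skeletal and cardiac muscle miRNAs, chosen with earlier results of these data known, had 6 members with a line and 5 that were tested, of which 2 were called higher and 2 lower, with miR-1-3p, miR-206-3p and miR-499-5p counted in. Over all tested sequences 54.6% were called. The median log2 fold change of the 5 was 0.56, whether miR-1-3p was taken at its fitted value or at its bound, and that of all 119 tested sequences was 0.26. MiR-133a-3p and miR-133b-3p, made from the clusters that hold miR-1 and miR-206, and miR-208b-3p had no line in the tables analysed here. The cardiac miR-208a-3p had 4 counts in 0 d replicate 2 and none elsewhere. The opposite arms of miR-1, miR-206 and miR-499 likewise had no line there.

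MiR-486, abundant in muscle and in red blood cells, had 3, 2 and 4 counts at 14 d and 624, 223 and 357 counts at 0 d. It fell by 5.04 ± 0.64 on the log2 scale (SE; edgeR adjusted p = 0.0015), and like miR-206-3p it was high in each 0 d library. MiR-378a-3p, encoded in the metabolic gene Ppargc1b and abundant in muscle and brown fat, had 123, 186 and 122 counts at 14 d and 56, 91 and 0 counts at 0 d. It rose by 3.82 ± 1.24 (SE; edgeR adjusted p = 0.0323), with a blank in 0 d replicate 3 where miR-1b was also blank, and this call ended with limma on the authors' values (4.45). It also ended on leaving out 14 d replicate 2 (3.28), 14 d replicate 3 (4.07) and, in the other group, 0 d replicate 1 (3.58). The smooth muscle pair, miR-143-3p and miR-145-5p, rose by 2.15 (edgeR adjusted p = 0.00759) and 4.32 (edgeR adjusted p = 0.0433). The same fit called 26.1% of all tested sequences higher. With total counts neither of the pair was called (1.37 and 3.55). Limma on the authors' values also ended the miR-143-3p call (1.53). It ended that of miR-145-5p with a pseudocount of 0.1 (7.82) or without the filter (5.61). Leaving out any 14 d library (4.04 to 4.48) or, at 0 d, replicate 1 (3.54) or replicate 3 (3.75) also ended the miR-145-5p call.

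**Figure D4:**
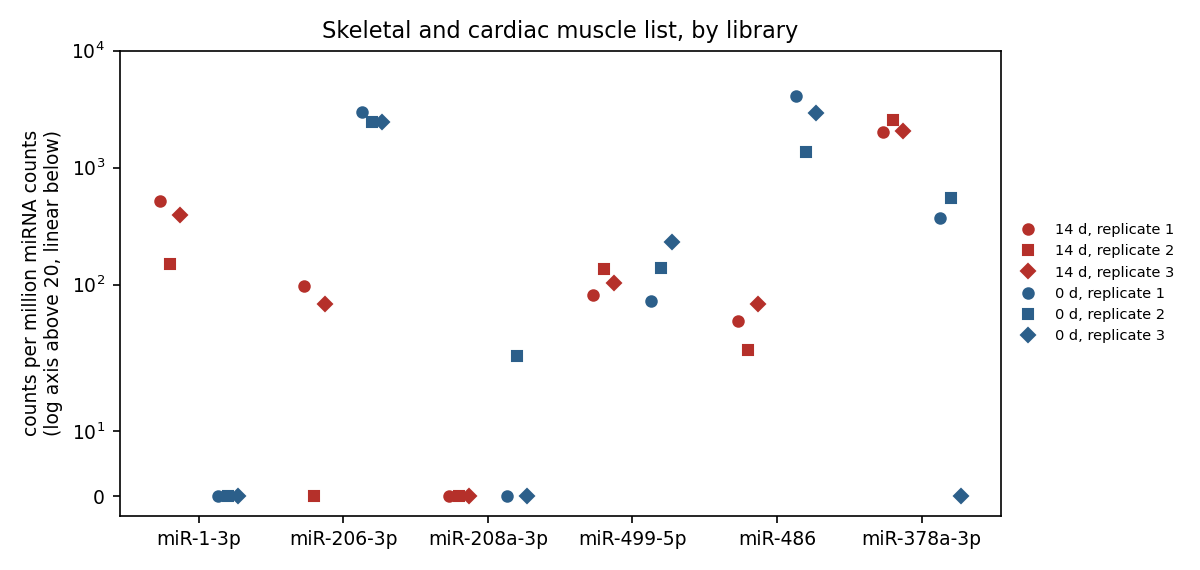
Levels in CPM of the 6 skeletal and cardiac muscle miRNAs with a line, by library, on an axis that is logarithmic above 20 and linear below. Red symbols are 14 d libraries and blue symbols 0 d libraries; miR-206-3p and miR-486 are low at 14 d, miR-1-3p and miR-378a-3p are high at 14 d, and miR-499-5p overlaps.

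Several markers of red cells, liver and serum were also lower at 14 d, but not all. Of 6 erythrocyte miRNAs, all with a line, 4 were tested, of which 3 were called lower (miR-486, miR-25-3p and miR-144-5p) and 1 higher (miR-16-5p), in a fit that called 28.6% of all tested sequences lower and 26.1% higher. Total counts (1.37) and leaving out 14 d replicate 2 (1.42) or, at 0 d, replicate 3 (2.41) ended the miR-16-5p call. Leaving out, at 14 d, replicate 1 (-2.91) or replicate 2 (-3.04), or, at 0 d, replicate 1 (-3.22), ended that of miR-144-5p. The list's summed level was 2758 to 3779 CPM at 14 d and 20855 to 28954 CPM at 0 d. Most of it was miR-25-3p, with means of 2466 CPM at 14 d and 20281 CPM at 0 d. The defining red-cell miRNA miR-451-5p had 7 counts in 0 d replicate 2 and none in the other 5 libraries. Of 3 liver and serum miRNAs, 2 had a line and both were tested. MiR-122-5p, the main liver miRNA, was called lower at -2.40 (edgeR adjusted p = 0.0191), and miR-192-5p was at -1.27 and not called. The miR-122-5p call was not kept without 14 d replicate 3 (-2.28, edgeR adjusted p = 0.0714), after thinning (-1.90) or with limma without the filter (-2.99). The list's summed level was 4336 to 6096 CPM at 14 d and 28493 to 108516 CPM at 0 d. The part of red cell or serum RNA in the miR-206-3p result was not tested.

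Neural and leukocyte lists were read for comparison. Of 6 neural miRNAs 5 had a line and 4 were tested, with 1 called higher (miR-129-5p, 2.70) and 1 lower (miR-128-3p, -1.09). The same fit called 26.1% of all tested sequences higher and 28.6% lower. Values were 2.03 for miR-7a-5p and 3.05 for miR-132-3p, not past the threshold. With limma on the authors' values none of the 4 was called. Leaving out any library other than 14 d replicate 2 also ended the miR-128-3p call (-0.94 to -1.17), and leaving out 14 d replicate 2 (1.38) or, at 0 d, replicate 3 (2.39) that of miR-129-5p. Their summed level, mostly miR-128-3p at 0 d, was 2438 to 2813 CPM at 14 d and 3420 to 4409 CPM at 0 d. Of 5 leukocyte miRNAs 3 had a line and none was tested, with no count at 14 d and at most 197 CPM in sum at 0 d.

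Likeness of pattern was measured as the root mean square (RMS) difference between log2 CPM profiles (TMM, prior count 1) over the 6 libraries, each centered on its mean. Nearest to miR-206-3p were miR-127-3p and miR-433-3p of the imprinted Dlk1-Dio3 locus, miR-328a-3p, miR-486 and 1 predicted sequence, at RMS differences of 0.99 to 1.37 against a median of 3.35 over all tested sequences. MiR-328a-3p had 7, 2 and 7 counts at 14 d and 456, 547 and 364 at 0 d. The counts of miR-206-3p were 6, 0 and 4 at 14 d and 454, 403 and 294 at 0 d. The 5 sequences nearest to miR-1-3p were all predicted ones without a miRNA name, at RMS differences of 0.79 to 1.15 against a median of 2.85. No annotated miRNA was thus among them.

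Nearest to miR-499-5p were miR-532-5p, miR-99b-3p, miR-151-3p, miR-29a-3p and miR-196a-5p, at RMS differences of 0.36 to 0.59 against a median of 1.65. None of these was called, against 54.6% of all tested sequences, but their choice by likeness to an uncalled sequence largely sets that outcome. Nearest to the sum of miR-1-3p and miR-206-3p were miR-25-3p, miR-320-3p, miR-224-5p, miR-493-5p and miR-409a-3p, at 0.34 to 0.38 against a median of 1.72. Their log2 fold changes lay between -1.41 and -2.27. MiR-25-3p had 207, 118 and 141 counts at 14 d and 3643, 3105 and 2178 counts at 0 d.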

How the data were processed

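Small RNA of vesicles from DFAT cells was sequenced in 6 libraries, 3 per group. Per the labels' protocols, Trizol was used for extraction and a small RNA kit for the libraries. Tools in the submitters' processing notes, which assign no roles, are cutadapt 1.9.3 and Novoalign 3.02.12, with build rn6. The sources used here do not name the counting tool. The authors' raw table gives tag counts for each mature miRNA, per the file headers. Their second table gives a normalized score, rounded to whole numbers, and how the authors normalized it is likewise not stated.

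Repeated lines were merged into 1 row per mature sequence. The counts were tested with edgeR 4.0.16 (R 4.3.3), with its default filter (minimum count 10, minimum total 15) and the group as the only term. The 119 sequences kept held 99.1% to 99.7% of each library's counts. An SE is the log2 fold change over the square root of its F value. Alternatives used other scaling, filters and merging, DESeq2 1.42.0, limma 3.58.1 on log2 of the authors' score plus 1 or 0.1, and libraries thinned to 58730 counts. The script was tested on simulated data. Replicate libraries were distinct, with chi-square values per degree of freedom of 25.8 to 138.

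Members, lists and tests were chosen with earlier results of these data known. Named miRNAs are the members, their arms, cluster partners and near-identical sequences, muscle-list members, the 5 nearest in pattern and the neighbors in rank. Other list members are named where a count needed them. Sequences and coordinates are RefSeq's, of build GRCr8, which differs from the submitters' build.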

Additional observations from a re-analysis of the deposited data

How the results depend on the processing

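The miR-206-3p call kept its direction and its side of the threshold in all 21 alternatives, and the miR-1-3p call in 19 of 20. In the main fit both passed the count filter through 1 group alone, so the kept directions add no support. The exception was the addition of miR-1b counts (2.50, edgeR adjusted p = 0.105). Taking blanks of the members as 1, chosen after seeing the data, left miR-1-3p at a fitted 6.16 and miR-206-3p at -4.72, both called. MiR-499-5p was called in none of 19 alternatives, but its sign turned with total counts (-0.46), 1 line per name (-0.35) and limma on the authors' values (-0.20 with a pseudocount of 1, with or without the filter, and -0.20 with 0.1). It was -0.12 to 0.97 without 1 library each, with -0.12 without 14 d replicate 2. The stricter filter kept neither miR-1-3p nor miR-499-5p, and thinning left miR-499-5p untested.

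The log2 ratio of the summed seed level was -2.68 on total counts, -1.81 on total counts without miR-21-5p and -2.28 to -3.10 without 1 library each; the cause was not tested. The share of miR-206-3p moved by less than its SD in all 9 alternatives. Calls over all sequences numbered 65 (31 higher, 34 lower) and 45 to 82 in the alternatives. The split was 18 and 46 with total counts, which shifted log2 values by a median of -0.86, 34 and 23 after thinning, and 21 and 40 with limma plus 1 or 18 and 35 plus 0.1.

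The replicate block gave 62 calls, with miR-1-3p still called higher (fitted value 8.73), miR-206-3p at -5.06 and miR-499-5p at 0.54. The correlations of same-numbered libraries, taken on deviations from group means, were -0.02, 0.03 and 0.15. Those of differently numbered libraries were -0.13 to 0.06. With 3 libraries per group these values cannot show whether same-numbered samples are paired, and no label says so. With 10 counts of miR-206-3p and 21 of miR-499-5p at 14 d, depth limits both levels. Fitted values of miR-1-3p depend on the prior count where it has no count at 0 d. Its bound, which covers counting error only, is 4.83 on the log2 scale with TMM.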
